A study of Homo sapiens with 9 samples.

Results

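Heat shock proteins and J-domain (DNAJ) proteins are the main chaperones of human cells, and their mRNA levels and transcript isoforms were examined in the b-39 subline of HEK293 Flp-In T-Rex, a line that comes from human embryonic kidney. The genes were taken by symbol: all those beginning with HSPA, HSPB, HSPD, HSPE, HSPH, HSP90 or DNAJ, without 55 pseudogene symbols, 4 antisense symbols and 3 further symbols that the rule leaves out. This gave 74 of 50433 symbols, in 71 assembled loci and with 499 of 199618 isoforms in the isoform table. Of the 71 loci, 68 were in the gene table and 56 reached a mean of at least 1 FPKM (fragments scaled by transcript length and library size) over the libraries. The other 12 were under it (DNAJA4, DNAJB7, DNAJC15, DNAJC5B, DNAJC5G, HSPA12B, HSPA1L, HSPA6, HSPB3, HSPB6, HSPB7 and HSPB9), and DNAJB3, DNAJB8 and DNAJB13 had no gene value and an isoform signal of 0. The symbol rule also takes in HSPBP1, a nucleotide exchange factor of HSP70, and 2 readthrough symbols, DNAJC25-GNG10 and HSPB2-C11orf52.

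An HSP70 chaperone binds unfolded segments of a protein when it holds ADP and lets go of them when it holds ATP. J-domain proteins bring clients to HSP70 and start ATP hydrolysis, and nucleotide exchange factors then remove the ADP. HSP90 acts later on a narrower set of clients such as kinases and receptors, the HSP60 chaperonin HSPD1 encloses proteins inside mitochondria with its lid HSPE1, and the small heat shock proteins (HSPB) hold unfolded proteins without ATP. Many of these genes are switched on by heat shock factor HSF1 through repeats of the bases nGAAn, and those of the endoplasmic reticulum (ER) by the unfolded protein response.

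The cells carried a β-globin reporter with a premature stop codon (PTC39) at the Flp-In site and had received siRNA against SMG6 and XRN1, against UPF1 and XRN1, against XRN1 alone, or against EGFP as control. XRN1 is the cytoplasmic 5'-to-3' exonuclease, UPF1 the helicase of nonsense-mediated decay (NMD) and SMG6 its endonuclease. NMD degrades mRNAs whose translation ends early, and the design text gives the detection of NMD isoforms and their levels as the purpose of the RNA-seq. The cytoplasm was released with digitonin and poly(A)+ RNA was selected. With 1 library per condition, differences lack a replicate check and no p-value was computed. The libraries held an estimated 34650019 (SMG6/XRN1), 35983495 (UPF1/XRN1), 32970743 (XRN1) and 31476544 (control) reads. The siRNA targets did not serve as a check of the labels. XRN1 was at 10.1, 6.504, 7.31 and 7.80 FPKM in the libraries labelled SMG6/XRN1, UPF1/XRN1, XRN1 and control, SMG6 at 7.66, 5.97, 5.55 and 4.77 FPKM, and UPF1 at 11.4, 8.59, 11.6 and 6.71 FPKM. XRN1 was thus only slightly lower in XRN1 and UPF1/XRN1 than in the control and higher in SMG6/XRN1. SMG6 was highest, not lowest, in the library labelled for it. UPF1 was higher in UPF1/XRN1 than in the control but lower than in XRN1 and SMG6/XRN1. Each condition name from here on therefore stands for the library with that label. HBB, the gene of the reporter, was at 355, 747, 257 and 139 FPKM in the same order of libraries. Of the HEK293 markers KRT8, KRT18, VIM, NEFL, NEFM and LIN28B, only NEFM was under 1 FPKM, and the blood, endothelial, liver and muscle markers were under 1 FPKM or had no gene value. In bulk RNA, fewer cells with a transcript and less of it per cell cannot be told apart.

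At the level of whole loci the chaperone genes moved little. Changes are log2 ratios of FPKM + 1, and 2-fold was the size called. In SMG6/XRN1 over control, 2 of the 56 loci were called higher and none lower, where 9.3% of all 12164 loci were called higher and 0.263% lower. In UPF1/XRN1 over control, 3 were called higher and none lower, where 10.2% of all loci were called higher and 0.575% lower. Against XRN1 depletion, no locus was called in SMG6/XRN1, with backgrounds of 1.36% (higher) and 0.173% (lower). In UPF1/XRN1 over XRN1, 2 were called higher and none lower, with backgrounds of 2.52% and 0.534%. In XRN1 over control none was called, where 4.11% of all loci were called higher and 0.37% lower. The shares of chaperone loci called were thus under or near those of all loci. The 5 comparisons share libraries and are not independent of each other.

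The medians of the chaperone loci lay close to those of all loci. They were 0.23 in SMG6/XRN1 over control, against 0.25 for all loci, and 0.16 in UPF1/XRN1 over control, against 0.15. Against XRN1, they were 0.15 for SMG6/XRN1 with all loci at 0.12, and 0.06 for UPF1/XRN1 with all loci at 0.02. In XRN1 over control the median was 0.07, with all loci at 0.14. Because all loci were shifted upward by over 0.1 in 4 of these comparisons, a chaperone gene near 0 in them lay under the middle of the library. By family the medians differed in sign, though most families hold few loci. Of all loci, 75.3% were above 0 in SMG6/XRN1 over control and 62.2% in UPF1/XRN1 over control, and of the DNAJC loci 84% and 76%. Of the 9 DNAJB loci 8 were above 0 in each co-depletion over control, with medians of 0.46 (SMG6/XRN1) and 0.30 (UPF1/XRN1), and of the 25 DNAJC loci 21 and 19 were above 0, with medians of 0.31 and 0.24. The 3 HSP90 loci had a median of −0.20 in both, with 1 locus above 0 in SMG6/XRN1 and none in UPF1/XRN1.

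**Figure D1:**
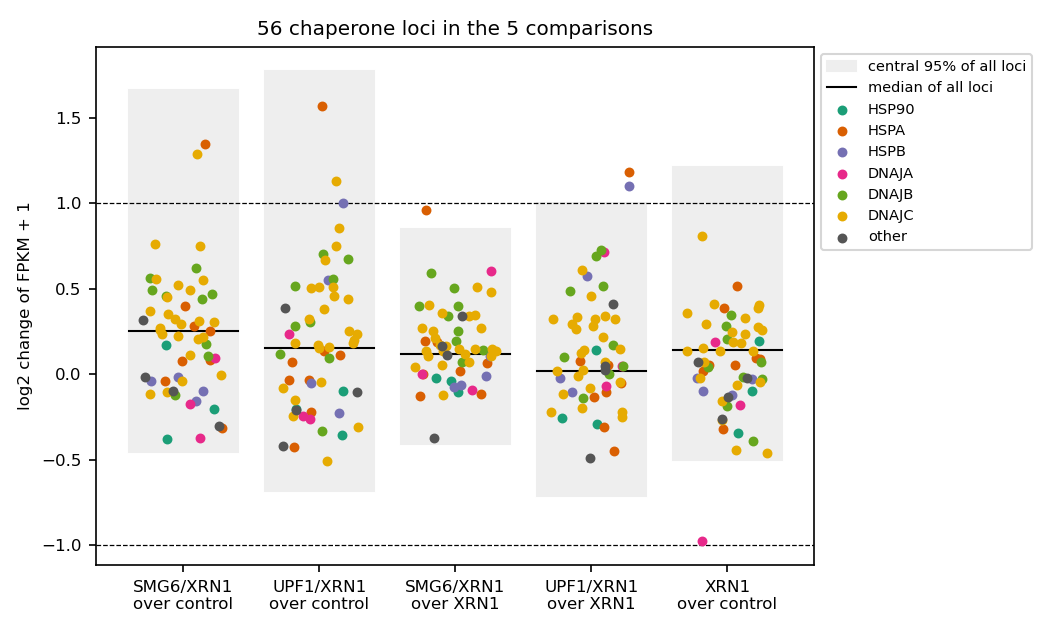
Log2 change of FPKM + 1 (vertical axis) of the 56 chaperone loci in the 5 comparisons (horizontal axis). Each point is a locus coloured by family, with the single loci of HSPD1, HSPE1, HSPH1 and HSPBP1 as other; the grey box spans the central 95% of all 12164 loci, the line in it is their median, and dashed lines mark 2-fold. Most points lie near the median of all loci, the HSPA1A/HSPA1B locus is the highest point in both comparisons of UPF1/XRN1 and in both of SMG6/XRN1, and DNAJA1 is the lowest in XRN1 over control.

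HSP90AA1, the inducible cytosolic HSP90, was the most abundant chaperone locus, with 2014 FPKM in SMG6/XRN1, 2279 in UPF1/XRN1, 2065 in XRN1 and 2618 in the control. It was highest in the control. Its estimated reads, scaled as in the deposited spike-in normalisation, gave ratios to control of 0.831 in SMG6/XRN1 (95% interval 0.826 to 0.835), 0.936 in UPF1/XRN1 (0.931 to 0.94) and 0.802 in XRN1 (0.798 to 0.806). These intervals, exact conditional binomial ones, cover counting error only and not the spread between cultures. HSP90AB1, the constitutive cytosolic HSP90, had 670, 602 and 720 FPKM in SMG6/XRN1, UPF1/XRN1 and XRN1, and 770 in the control, again the highest. HSP90B1, the HSP90 of the ER, had 177, 146 and 179 FPKM in the 3 depletions and 157 in the control, so that UPF1/XRN1 was the lowest.

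**Figure D2:**
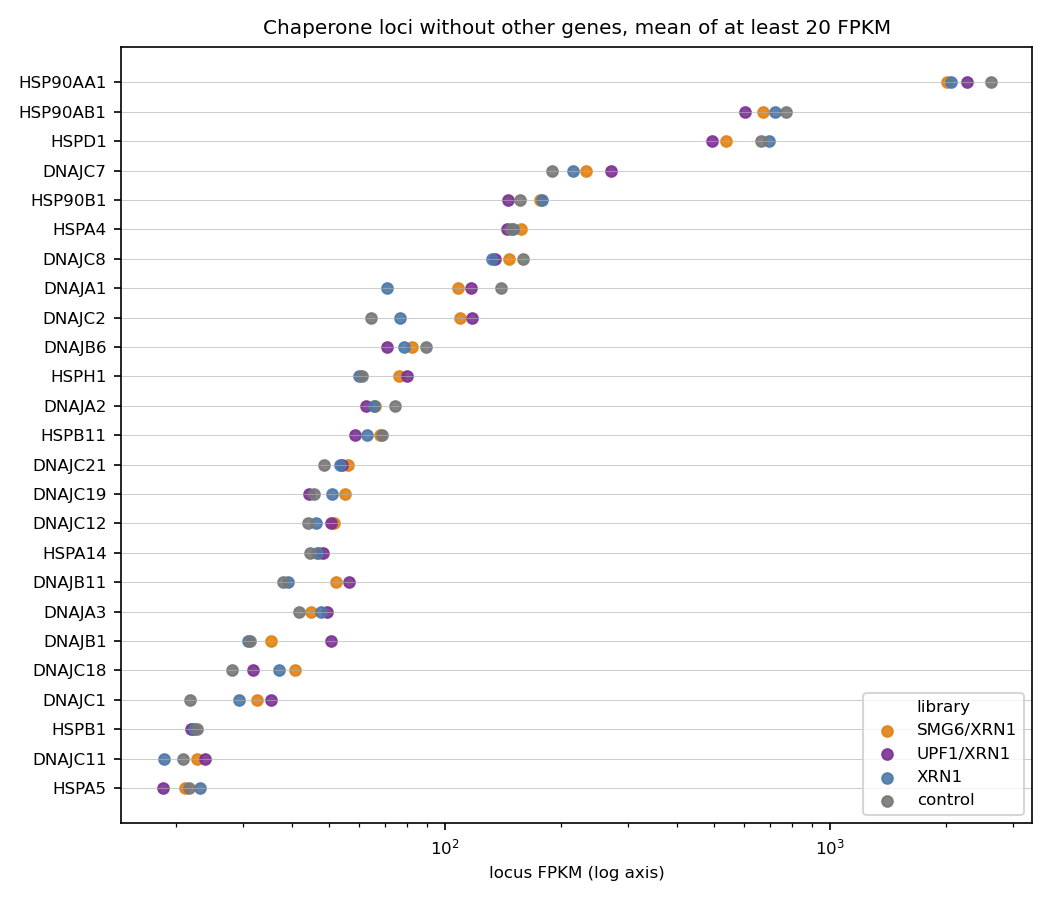
Locus FPKM on a log axis (horizontal) of the chaperone loci that hold no other gene and average at least 20 FPKM, 1 row per locus, with 1 point per library coloured by condition. Levels span from HSPA5 near 20 FPKM to HSP90AA1 above 2000; the 4 points of most rows lie close together, and DNAJA1 has its XRN1 point apart to the left.

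Among the HSP70 genes, the locus of HSPA1A and HSPA1B, the heat-inducible pair, had 812 FPKM in SMG6/XRN1, 948 in UPF1/XRN1, 417 in XRN1 and 319 in the control. Both co-depletions were above both other libraries, with log2 changes of 1.35 and 1.57 over control and of 0.96 and 1.18 over XRN1. The assembled locus also holds C6orf48, a host gene of small nucleolar RNAs, and the isoform signal separates the genes. HSPA1A and HSPA1B together had a signal of 104497 in SMG6/XRN1, 109349 in UPF1/XRN1, 76741 in XRN1 and 77554 in the control. C6orf48 had 89152, 109320 and 43552 in the 3 depletions and 23450 in the control. The ratio to control was thus 1.35 (1.32 to 1.37) in SMG6/XRN1, 1.41 (1.38 to 1.44) in UPF1/XRN1 and 0.99 (0.970 to 1.009) in XRN1 for the HSP70 pair, and 3.802, 4.66 and 1.86 for C6orf48. The share of the locus signal in the HSP70 pair was 54.0%, 50.01% and 63.8% in the 3 depletions and 76.8% in the control. By its own isoforms, the pair did not pass 2-fold in any comparison.

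**Figure D3:**
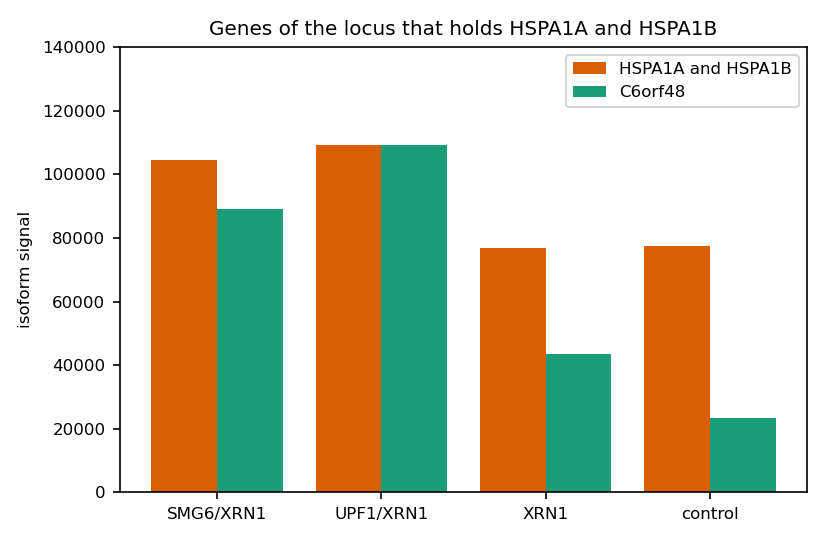
Isoform signal (vertical axis, from 0) summed over HSPA1A and HSPA1B (orange) and over C6orf48 (green) in the 4 libraries, with 1 bar per gene group and library and no error bar because each condition had 1 library. The HSP70 bars are at 104497 and 109349 in the co-depletions, against 76741 in XRN1 and 77554 in the control; the C6orf48 bars are at 89152, 109320 and 43552 in the depletions and 23450 in the control.

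The split between HSPA1A and HSPA1B is uncertain. Their coding sequences of 1926 bases are identical at 1922 positions (99.8%) and encode the same 641 residues, and the files assign most of the pair's signal to HSPA1B. The windows from 250 bases before to 50 after the RefSeq start (GRCh38.p14, chr6:31815293-31815592 and chr6:31827488-31827787, both on the plus strand) are shown with the pair of head-to-head heat shock units GAANNTTC in capitals:
HSPA1A: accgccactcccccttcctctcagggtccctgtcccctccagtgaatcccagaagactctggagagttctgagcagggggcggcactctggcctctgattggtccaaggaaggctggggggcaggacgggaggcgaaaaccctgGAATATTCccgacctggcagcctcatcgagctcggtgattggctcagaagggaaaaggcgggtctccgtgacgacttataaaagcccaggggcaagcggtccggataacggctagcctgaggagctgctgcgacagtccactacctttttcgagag
HSPA1B: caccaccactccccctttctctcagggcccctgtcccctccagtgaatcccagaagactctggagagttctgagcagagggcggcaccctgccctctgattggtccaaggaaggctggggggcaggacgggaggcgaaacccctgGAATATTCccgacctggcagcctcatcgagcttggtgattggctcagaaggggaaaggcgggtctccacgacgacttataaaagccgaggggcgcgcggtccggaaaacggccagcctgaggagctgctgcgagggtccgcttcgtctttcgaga

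No other HSP70 locus was called in any comparison. HSPA4, an HSP110-type exchange factor, had 158, 145 and 151 FPKM in SMG6/XRN1, UPF1/XRN1 and XRN1, and 149 in the control. HSPA14, the HSP70 that works with DNAJC2 at the ribosome, had 47.2, 48.3 and 46.5 FPKM in the depletions and 44.7 in the control. HSPA5 (BiP), the HSP70 of the ER and a standard read-out of the unfolded protein response, had 21.1, 18.5 and 23.2 FPKM, and 21.7 in the control. Its 4 values thus lay within a narrow band with UPF1/XRN1 lowest. HSPA12A, a distant relative of the HSP70 family, had 4.73, 3.56 and 5.21 FPKM in the depletions and 3.34 in the control. HSPA2, an HSP70 best known from male germ cells, had 1.30, 1.13 and 1.29 FPKM and 1.86 in the control, its highest value. HSPA6, an HSP70 known for strict heat induction, was under 1 FPKM, with 0.0588, 0.123 and 0.0104 FPKM in the depletions and 0.0402 in the control. HSPH1, the inducible HSP110, was at 76.0 FPKM in SMG6/XRN1 and 79.9 in UPF1/XRN1, against 59.9 in XRN1 and 60.9 in the control. Both co-depletions were above both other libraries, with read ratios to control of 1.34 (1.30 to 1.38) and 1.41 (1.38 to 1.46).

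The mitochondrial chaperonin gene HSPD1 had its lowest values in the co-depletions, 538 FPKM in SMG6/XRN1 and 496 in UPF1/XRN1, against 697 in XRN1 and 663 in the control. Its log2 changes over XRN1, −0.37 and −0.49, were the lowest of all 56 loci in those comparisons, and its read ratios to control were 0.864 (0.853 to 0.875) and 0.766 (0.757 to 0.776). HSPE1, its lid, shares a locus with MOB4. Its own isoform signal was 22821 and 21272 in SMG6/XRN1 and UPF1/XRN1, 19356 in XRN1 and 22658 in the control, so it did not follow HSPD1 against XRN1. HSPD1 and HSPE1 start head to head, and an HSPD1 window and the HSPE1 window overlap by 204 bases.

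Among the small heat shock proteins, HSPB8 was set apart by 1 library. HSPB8, which acts with BAG3 to send misfolded proteins to autophagy, had 1.30 FPKM in SMG6/XRN1, 4.14 in UPF1/XRN1, 1.40 in XRN1 and 1.56 in the control. UPF1/XRN1 was the only library above 2 FPKM. Its log2 change there was 1.005 over control and 1.10 over XRN1, from an estimated 92, 331 and 76 reads in SMG6/XRN1, UPF1/XRN1 and XRN1 and 98 in the control. Centred on the median of all loci, the change over control was 0.85 and no longer called. The read ratio of UPF1/XRN1 to control was 3.26 (2.59 to 4.13), and that of SMG6/XRN1 to control was 1.04 (0.77 to 1.39). BAG3 itself had 27.3, 27.6 and 24.6 FPKM in the depletions and 25.3 in the control. HSPB1 (HSP27) was level, at 22.1, 21.9 and 22.3 FPKM in the depletions and 22.7 in the control. HSPB11, a subunit of intraflagellar transport despite its name, had 67.9, 58.6 and 62.9 FPKM, and 68.6 in the control. The locus of HSPB2, a muscle small heat shock protein, had 1.90, 3.54 and 2.05 FPKM and 2.10 in the control, but HSPB2 itself had an isoform signal of 0 in all 4 libraries, and the locus value comes from the readthrough HSPB2-C11orf52 and from C11orf52. The loci of HSPB3, HSPB6, HSPB7 and HSPB9 were under 1 FPKM in all 4 libraries.

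The HSPB8 window (chr12:119178681-119178980, plus strand, GRCh38.p14) holds GAANNTTC at 2 places, in capitals:
HSPB8: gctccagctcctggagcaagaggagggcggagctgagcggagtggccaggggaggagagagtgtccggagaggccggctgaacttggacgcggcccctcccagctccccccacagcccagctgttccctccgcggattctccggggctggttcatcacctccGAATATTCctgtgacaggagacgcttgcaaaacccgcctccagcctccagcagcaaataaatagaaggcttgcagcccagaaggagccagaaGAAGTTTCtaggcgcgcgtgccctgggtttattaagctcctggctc

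DNAJA1, the abundant cytosolic J-protein partner of HSP70, showed the lowest change of any chaperone locus. It had 108 FPKM in SMG6/XRN1, 117 in UPF1/XRN1, 70.7 in XRN1 and 140 in the control. The XRN1 library was lowest and the control highest, with the co-depletions between them. The log2 change was −0.98 in XRN1 over control, just inside the 2-fold limit and past it once changes are centred on the median of all loci, and 0.61 and 0.72 in SMG6/XRN1 and UPF1/XRN1 over XRN1. The read ratio of XRN1 to control was 0.513 (0.497 to 0.529). Its main protein-coding isoform, ENST00000330899, carried nearly all of this, with a signal of 38165, 40677 and 24155 in the depletions and 47380 in the control. DNAJA2, a related cytosolic J-protein, had 65.7, 62.6 and 65.6 FPKM in the depletions and 74.3 in the control, and DNAJA3, the mitochondrial J-protein, 44.9, 49.4 and 47.8 FPKM and 41.9 in the control. Neither showed the dip in XRN1.

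Among DNAJB genes, DNAJB1, the inducible HSP40, had 35.5 FPKM in SMG6/XRN1, 50.5 in UPF1/XRN1, 30.9 in XRN1 and 31.2 in the control. UPF1/XRN1 stood highest, at a log2 change of 0.68 over control. DNAJB2, a J-protein that binds ubiquitinated clients in neurons, had 8.19 and 9.13 FPKM in the co-depletions, against 5.11 in XRN1 and 5.23 in the control. DNAJB11, an ER partner of BiP, had 52.1 and 56.5 FPKM in the co-depletions, against 39.2 in XRN1 and 38.1 in the control. For these last genes both co-depletions lay above both other libraries without reaching 2-fold on FPKM. On isoform signal, DNAJB2 in UPF1/XRN1 had read ratios of 2.10 to control and 2.08 to XRN1. DNAJB6, a suppressor of polyglutamine aggregation, was highest in the control on FPKM, with 82.3, 71.0 and 78.4 FPKM in the depletions and 89.4 there. On isoform signal SMG6/XRN1 was its highest library, at 17901 against 16734 in the control. The locus of DNAJB4, which also holds GIPC2, had 10.2, 10.1 and 6.91 FPKM in the depletions and 9.38 in the control, so XRN1 was the lowest library there as for DNAJA1.

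Among DNAJC genes, DNAJC27, which joins a small GTPase fold to a J-domain, was the called member. It had 3.29 FPKM in SMG6/XRN1, 2.86 in UPF1/XRN1, 2.08 in XRN1 and 0.761 in the control, with all 3 depletions above the control. The log2 changes over control were 1.29, 1.13 and 0.81, the last being the highest of the 56 loci in XRN1 over control. Centred on the median of all loci, the change in UPF1/XRN1 was 0.98, just under 2-fold, and with a pseudocount of 0.1 FPKM the change in XRN1 was past it. The read ratios to control were 2.38 (1.96 to 2.91), 3.07 (2.55 to 3.71) and 2.36 (1.94 to 2.88). DNAJC2, the ribosome-bound partner of HSPA14, had 110 and 118 FPKM in the co-depletions, against 76.6 in XRN1 and 64.4 in the control. Its read ratios to control were 1.82 (1.75 to 1.88) in SMG6/XRN1 and 1.93 (1.87 to 2.0) in UPF1/XRN1. DNAJC10, an ER disulfide reductase, had 14.2 FPKM in both co-depletions, 11.04 in XRN1 and 8.05 in the control. DNAJC1, an ER membrane J-protein, had 32.6, 35.4 and 29.2 FPKM in the depletions and 21.8 in the control. DNAJC7, which binds HSP70 and HSP90 through its repeats, was the most abundant DNAJC gene alone in its locus, at 232, 270 and 216 FPKM in the depletions and 189 in the control. DNAJC8, a spliceosome-associated J-protein, had 147, 135 and 132 FPKM and 160 in the control, which was the highest. DNAJC18 had 40.8, 31.7 and 37.0 FPKM in the depletions and 28.1 in the control, and the locus of DNAJC6 (auxilin, which uncoats clathrin vesicles) had 8.20, 10.1 and 9.03 FPKM and 6.82 in the control.

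Of the 56 loci, 11 hold other genes too, so their FPKM is not that of the chaperone alone. The locus value of DNAJC14 is mostly SARNP and that of DNAJC5 mostly TPD52L2. In the locus of DNAJC25 and GNG10, the locus had 67.6, 61.9 and 65.5 FPKM in the depletions and 54.5 in the control. The isoform signal of DNAJC25 was 8857 in SMG6/XRN1, 9186 in UPF1/XRN1, 5892 in XRN1 and 985 in the control. All 3 depletions were far above the control, with ratios of 9.01 (7.91 to 10.3), 9.34 (8.21 to 10.7) and 6.0 (5.24 to 6.88). GNG10, a G-protein γ subunit, had 7349, 5698 and 7603 in the depletions and 8586 in the control. Summed over the locus, the signal had ratios to control of 1.63 (1.56 to 1.71), 1.53 (1.46 to 1.60) and 1.40 (1.34 to 1.47) in the 3 depletions, on a scale that differs from FPKM. On isoform signal added up per symbol, 62 member symbols were above the isoform filter. Called higher over control were DNAJA4, DNAJC25, DNAJC27, DNAJC5G and HSPB6 in SMG6/XRN1, where 21% of all 17688 symbols were, and DNAJA4, DNAJB2, DNAJC25, DNAJC27, DNAJC5G and HSPB8 in UPF1/XRN1, where 20.2% were. None was called lower, with 1.23% and 2.28% of all symbols called lower. DNAJA4, a J-protein under 1 FPKM by locus, rests on an estimated 61, 84 and 28 reads in the depletions and 13 in the control. HSPB6 rests on 67, 55 and 63 reads in the depletions and 35 in the control. DNAJC5G had 15, 24 and 14 reads in the depletions and 0 in the control. It passed the isoform filter only through the depletions, so its call follows from the filter and is no evidence of a rise.

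The genes that work with these chaperones were followed as 6 lists. Of the heat shock factor list 4 of 5 genes were measured and none passed 2-fold. HSF1, the master factor of the heat shock response, had 13.3, 16.3 and 11.9 FPKM in the depletions and 8.83 in the control. Of 11 HSP70 nucleotide exchange factors, BAG1 passed 2-fold over control in both co-depletions, at 70.7 and 73.8 FPKM, with 50.6 in XRN1 and 31.4 in the control. SIL1, the exchange factor of BiP, passed it in UPF1/XRN1 over control, with a log2 change of 1.14, in a locus with CTB-46B19.1. HSPBP1, also in that list, had 12.4, 11.6 and 11.4 FPKM in the depletions and 12.6 in the control. None of the 14 genes listed as HSP90 co-chaperones, 8 subunits of the cytosolic chaperonin or 6 prefoldin subunits passed 2-fold in any of the 5 comparisons. TRAP1, in the first of these lists, is itself the HSP90 of mitochondria. It had the largest fall of that list, at −0.87 in UPF1/XRN1 over XRN1. On locus FPKM, the 8 chaperonin subunits were all below 0 in both co-depletions over control, with medians of −0.11 (SMG6/XRN1) and −0.23 (UPF1/XRN1). Of all loci, 24.7% and 37.8% were below 0 in these comparisons. On isoform signal, CCT2 and CCT4 were above the control in SMG6/XRN1, at 92167 against 88015 and 48908.5 against 46120. The other subunits there, and all in UPF1/XRN1, were below the control on that scale. Of 16 measured genes of ER folding, only DDIT3, the stress transcription factor CHOP, passed 2-fold on locus FPKM, at 34.95 FPKM in UPF1/XRN1 and 11.1 in the control. It had 23.0 FPKM in SMG6/XRN1 and 22.4 in XRN1. EDEM1 and XBP1 were just under 2-fold in UPF1/XRN1 over control, at log2 changes of 0.98 and 0.95, where the list median was 0.11. Their isoform signals there were 4464 against 1653 and 13834 against 6548 in the control. The SYVN1 locus also holds FAU. The isoform signal of SYVN1 itself was 431, 414 and 363 in the depletions and 208 in the control.

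More isoforms than loci were called. Of 223 chaperone isoforms with a mean signal of at least 30.9, 65 were called higher and 17 lower in SMG6/XRN1 over control (29.1% and 7.62%), where 35.2% and 8.52% of all 61408 isoforms were. In UPF1/XRN1 over control, 72 were called higher and 13 lower (32.3% and 5.83%), where 35.5% and 10.3% of all isoforms were. In XRN1 over control, 52 were called higher and 19 lower, with backgrounds of 24.3% and 12.6%. The chaperone shares were near or under those of all isoforms. Of the 223, 25 were listed at 0 in the control. Among the other 198, a setting chosen after seeing the data, 45 were called higher and 17 lower in SMG6/XRN1 (22.7% and 8.59%). In UPF1/XRN1, 50 were called higher and 13 lower (25.3% and 6.57%). Of all isoforms above 0 in the control, 30.5% and 30.6% were called higher in the 2 co-depletions and 9.40% and 11.4% lower. Centred on the median of all isoforms, the 223 split into 53 higher and 23 lower in SMG6/XRN1 and 56 and 20 in UPF1/XRN1. Shares of all isoforms were not computed after this centring, so these counts lack a background. The authors' deposited NMD mark, which is set exactly where both co-depletions exceed 2 times the control, was on 54 of the 223 (24.2%), against 27.9% of all isoforms. Of the 54, 18 were listed at 0 in the control.

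The isoforms were then grouped by the transcript type that GENCODE 29 gives to the reference transcript they match, which uses no value of these libraries. Of 20 isoforms of NMD type, 10 were called higher in SMG6/XRN1 over control and 10 in UPF1/XRN1 (50% each), with median log2 changes of 0.91 and 1.11. Of 97 protein-coding isoforms, 13 and 14 were called higher (13.4% and 14.4%), with medians of 0.26 and 0.25. Over all isoforms, the NMD type was called higher in 56.2% and 59.1% and the protein-coding type in 24.5% and 23.9%. Of 16 retained-intron isoforms 7 were called higher in each (43.8%), where 42.2% (SMG6/XRN1) and 44.3% (UPF1/XRN1) of that type were over all isoforms. Of 67 isoforms that share a splice junction with a reference transcript but match none (class j), 26 were called higher in SMG6/XRN1 and 33 in UPF1/XRN1 (38.8% and 49.3%), where 42.7% and 44.0% of class j were over all isoforms. In XRN1 over control, 7 of the 20 NMD-type isoforms were called higher (35%), where 33.8% of the type were over all isoforms, and 11 of the 97 protein-coding isoforms (11.3%), where 17.3% were.

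Some of these isoforms passed the filter only through the depletions. Of the 20 NMD-type isoforms 4 were listed at 0 in the control, as were 6 of the 97 protein-coding ones. Without isoforms at 0 in the control, a setting chosen after seeing the data, 6 of 16 NMD-type isoforms were called higher over control in each co-depletion (37.5%), with medians of 0.55 (SMG6/XRN1) and 0.70 (UPF1/XRN1). Over all isoforms above 0 in the control, 51.3% and 54.5% of the NMD type were. For the protein-coding type, 7 and 10 of 91 were called higher (7.69% and 10.99%), where 21.3% and 20.6% were over all isoforms. In XRN1 over control, 3 of the 16 and 5 of the 91 were called higher (18.8% and 5.49%), where 27.7% and 14.1% of these types were.

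**Figure D4:**
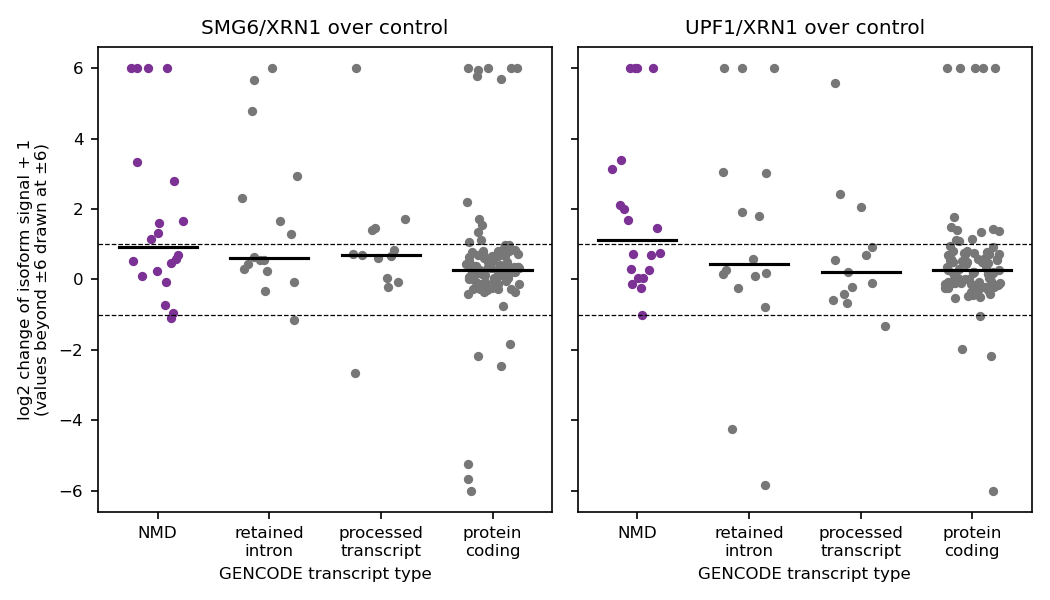
Log2 change of isoform signal + 1 (vertical axis, values beyond ±6 drawn at ±6) of chaperone isoforms by GENCODE transcript type (horizontal axis), SMG6/XRN1 over control on the left and UPF1/XRN1 over control on the right. Points are isoforms above the signal filter, bars are medians and dashed lines mark 2-fold; the medians of the 20 NMD-type isoforms are 0.91 and 1.11 and those of the 97 protein-coding isoforms 0.26 and 0.25.

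A stop codon more than about 50 bases before the last exon junction is the classic signal for NMD. In the reference transcripts of these genes, 40 of 41 NMD-type transcripts with an annotated stop have it there (median distance of 287 bases), and none of 141 protein-coding ones has. GENCODE sets the NMD type largely from this position, so these counts restate the label and are not a result of these libraries. The last 48 bases of the reading frame, stop codon in capitals, are shown for NMD-type isoforms that the next paragraphs describe:
DNAJC25 ENST00000447096: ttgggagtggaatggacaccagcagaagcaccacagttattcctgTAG
DNAJC27 ENST00000380809: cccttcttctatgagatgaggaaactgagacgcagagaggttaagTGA
HSP90B1 ENST00000540297: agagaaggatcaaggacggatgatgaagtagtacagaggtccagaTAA
DNAJC17 ENST00000559238: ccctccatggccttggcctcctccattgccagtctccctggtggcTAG
DNAJA2 ENST00000563158: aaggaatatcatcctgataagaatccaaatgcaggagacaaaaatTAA
DNAJB5 ENST00000469798: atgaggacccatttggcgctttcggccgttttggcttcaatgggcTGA
HSPB1 ENST00000447574: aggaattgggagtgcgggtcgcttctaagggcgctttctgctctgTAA
These lie on chromosomes 9, 2, 12, 15, 16, 9 and 7 in the order given. The frame of the DNAJC25 isoform has 408 bases, shares its first 336 with the 1083-base frame of ENST00000313525 and stops 790 bases before the last junction. That of HSP90B1 ENST00000540297 has 162 bases, of which 152 begin the 2412-base frame of the full-length protein.

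Among the 51 chaperone genes with a mean signal of at least 1000, the one whose signal was almost all of NMD type was DNAJC25, a membrane J-protein. Its isoform ENST00000447096 had a signal of 8364 in SMG6/XRN1, 8729 in UPF1/XRN1, 5743 in XRN1 and 832 in the control. It was high in all 3 depletions, and its read ratio to control was already 6.90 (5.97 to 8.0) in XRN1 alone, against 10.04 (8.72 to 11.6) and 10.5 (9.12 to 12.1) in SMG6/XRN1 and UPF1/XRN1. Its protein-coding isoform ENST00000313525 had 119, 140 and 92.0 in the depletions and 153 in the control. A second NMD-type isoform, ENST00000463589, had 374, 317 and 57.7 in the depletions and was listed at 0 in the control; its last 48 frame bases are the same as those of the first. NMD-type isoforms thus held 98.7%, 98.5% and 98.4% of DNAJC25 signal in the depletions and 84.5% in the control.

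DNAJC27 behaved alike in part. Its NMD-type isoform ENST00000380809 had 419, 570 and 536 in SMG6/XRN1, UPF1/XRN1 and XRN1, and 131 in the control, so that it was as high in XRN1 as in the co-depletions. Its protein-coding isoform ENST00000264711 had 350, 1158 and 615 in the depletions and 447 in the control. HSP90B1 ENST00000540297 was high in the co-depletions only, at 503 and 636, against 99.4 in XRN1 and 71.6 in the control. Set beside 76021, 60540 and 71797 in the depletions and 64502 in the control for the full-length isoform ENST00000299767, it was a minor part of the gene's signal.

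DNAJC2 differed in the balance of its isoforms. Its retained-intron isoform ENST00000475065 was at a signal level of 6497 (SMG6/XRN1) and 7114 (UPF1/XRN1), against 1712 in XRN1 and 853 in the control. A class j isoform near ENST00000379263 had 2198 and 4656 in the co-depletions, 369 in XRN1 and 90.7 in the control. The protein-coding ENST00000379263 itself had 24813, 23682 and 20510 in the depletions and 17526 in the control. Isoforms with the authors' NMD mark held 27.7% of DNAJC2 signal in SMG6/XRN1 and 35.5% in UPF1/XRN1, against 9.82% in XRN1 and 7.25% in the control. The mark is set from these same values, so its shares are a description. The signal outside the marked isoforms was still higher over control, by log2 changes of 0.50 and 0.42. The isoforms of DNAJC25, DNAJC27, HSP90B1 and DNAJC2 that were above 0 in the control were chosen for description after their values were seen.

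The isoforms that the naming rule picked were all listed at or near 0 in the control, so no fold is given. They were led by a DNAJC7 class j isoform with a signal of 2728 in SMG6/XRN1, 4655 in UPF1/XRN1 and 386 in XRN1. An HSPD1 retained-intron isoform, ENST00000486181, followed with 929 and 2479 in the co-depletions and 0 in XRN1. The rule picked this isoform for its rise, so its direction cannot be set against that of the HSPD1 locus, which was lower in the co-depletions. Isoforms of HSPD1 with the authors' mark held 0.517% of its signal in SMG6/XRN1 and 1.52% in UPF1/XRN1. DNAJA1 ENST00000544625, which is not in GENCODE 29, had 583 and 751 in the co-depletions and 124 in XRN1, and HSPH1 ENST00000445273 had 653 and 570 against 175 in XRN1. The others were isoforms of DNAJB14, DNAJC25 (above), HSPA4L, DNAJB2, DNAJC17, DNAJC11, DNAJA2 and DNAJB5. Among them the NMD-type isoform of DNAJC17, a J-protein linked to splicing, had 182 and 147 in the co-depletions and 14.2 in XRN1. That of DNAJA2 had 124, 175 and 109 in SMG6/XRN1, UPF1/XRN1 and XRN1, and that of DNAJB5 had 102.1, 121 and 58.8.

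Among these chaperone genes, an NMD-type annotation did not always go with a higher share. Of the same 51 genes, 20 had an NMD-type isoform, and its share of the gene's signal was above that of the control for 11 genes in the SMG6/XRN1 library, 8 in the UPF1/XRN1 library and 10 in the XRN1 library. Such counts were not made over all genes, so whether chaperone genes differ from others here was not tested. In HSPB1 the NMD-type ENST00000447574 held 22.0%, 17.0% and 29.6% in SMG6/XRN1, UPF1/XRN1 and XRN1, and 20.2% in the control. In DNAJC7 the share was 10.3%, 10.6% and 12.8% in the depletions and 13.1% in the control, and in DNAJA3 11.01%, 9.11% and 11.9%, with 10.6% in the control. In DNAJC17, isoforms with the authors' mark rather than the GENCODE type held 28.5%, 37.9% and 17.7% of signal in the depletions and 3.43% in the control. HSP90AA1, HSP90AB1, HSPA1A, HSPA1B and HSPE1 had no marked isoform. Of the 51 genes, 35 had one, with at least 10% of signal in marked isoforms in 11 genes in each co-depletion and under 1% in 23 genes in UPF1/XRN1. These counts too lack a background over all genes.

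**Figure D5:**
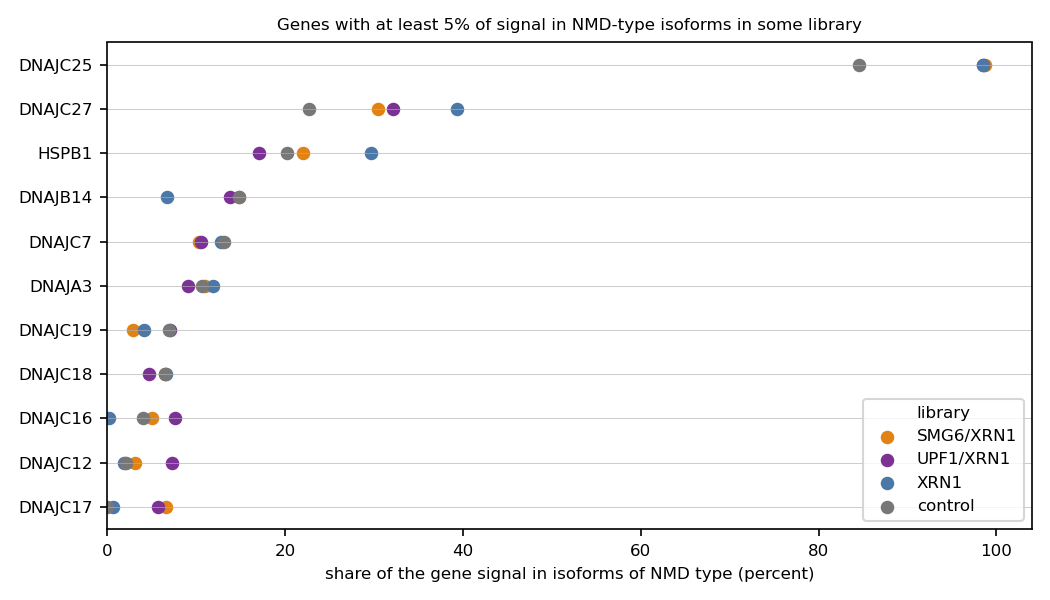
Share of each gene's isoform signal in isoforms of GENCODE NMD type, in percent (horizontal axis), for the chaperone genes with a mean signal of at least 1000 and a share of at least 5% in some library; 1 row per gene and 1 point per library. DNAJC25 has its control point at 84.5% and the depletions above 98%, while the points of DNAJC7 and DNAJA3 lie close together and HSPB1 is highest in XRN1.

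Heat shock units in the promoters were searched as letters, on both strands, in the 300-base RefSeq windows of 64 member genes (85 windows, GRCh38.p14). The head-to-head pair GAANNTTC was in 16 of these genes. It was in 17 of the 85 windows (20%), against 6.77% of all 35116 windows. The tail-to-tail pair TTCNNGAA was in 11 of the 85 windows (12.9%), against 7.74% of all windows. The run of 3 units, which is GAANNTTC followed by NN and GAA, was in 6 member genes, DNAJA1, DNAJB6, HSP90AA1, HSP90AB1, HSPA6 and HSPD1, with 6 of the 85 windows (7.06%), against 0.490% of all windows; every such run also holds the pair. The ER stress element, CCAAT and CCACG with 9 bases between them, was in HSP90B1 and HSPA5 and in 0.0769% of all windows. The windows of DNAJA1 (chr9:33025023-33025322, plus strand), HSPD1 (chr2:197499791-197500090, minus strand) and HSP90AA1 (chr14:102086995-102087294, minus strand) are shown with the run of 3 units, read on either strand, in capitals, since these had the lowest changes in SMG6/XRN1 over control of the genes with the run that passed the filter. In HSPD1 a pair of such runs overlap:
DNAJA1: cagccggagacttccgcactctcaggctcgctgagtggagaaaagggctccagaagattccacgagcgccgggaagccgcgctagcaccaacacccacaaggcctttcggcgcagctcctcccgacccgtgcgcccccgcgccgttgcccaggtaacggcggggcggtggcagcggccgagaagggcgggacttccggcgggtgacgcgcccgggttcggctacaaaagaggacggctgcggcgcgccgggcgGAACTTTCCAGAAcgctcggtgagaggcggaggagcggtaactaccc
HSPD1: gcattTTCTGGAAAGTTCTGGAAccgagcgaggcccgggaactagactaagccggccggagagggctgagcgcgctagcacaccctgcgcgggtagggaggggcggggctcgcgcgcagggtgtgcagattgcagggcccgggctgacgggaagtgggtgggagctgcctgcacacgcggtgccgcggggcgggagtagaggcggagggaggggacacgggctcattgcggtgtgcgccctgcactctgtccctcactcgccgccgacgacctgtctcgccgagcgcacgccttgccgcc
HSP90AA1: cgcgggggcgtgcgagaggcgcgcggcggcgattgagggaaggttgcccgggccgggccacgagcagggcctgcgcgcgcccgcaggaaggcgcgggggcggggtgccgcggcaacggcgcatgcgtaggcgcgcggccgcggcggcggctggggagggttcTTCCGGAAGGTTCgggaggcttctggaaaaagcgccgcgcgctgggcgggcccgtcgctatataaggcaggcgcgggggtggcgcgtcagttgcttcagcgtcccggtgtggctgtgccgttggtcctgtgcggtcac

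On locus FPKM, the 5 of these 6 genes that passed the filter were all below 0 over control in both co-depletions. Their median was −0.30 in SMG6/XRN1 (from −0.38 to −0.12) and −0.33 in UPF1/XRN1 (from −0.42 to −0.20). Of all loci, 75.3% and 62.2% were above 0 in these comparisons. The direction was not uniform on isoform signal. There DNAJB6 had read ratios to control of 1.07 (1.025 to 1.116) in SMG6/XRN1 and 0.994 (0.953 to 1.04) in UPF1/XRN1, and the others were below 1 in both. On FPKM in XRN1 over control, 4 of the 5 were below 0, with a median of −0.19. Over XRN1 only 3 of the 5 were below 0 in each co-depletion. The medians there were −0.04 in SMG6/XRN1 (from −0.37 to 0.61) and −0.14 in UPF1/XRN1 (from −0.49 to 0.72), with DNAJA1 highest. Genes with the pair GAANNTTC but not the run were not summarised as a set. Most of those past the filter were above 0 on FPKM in UPF1/XRN1 over control. These were DNAJB1, HSPB8, DNAJC6 (0.51) and the HSPA1A/HSPA1B locus (1.57, or 0.50 on the pair's own isoform signal). Only HSPB1 was below 0 on FPKM, and its log2 change on isoform signal was 0.13. The 5 genes include the most abundant chaperone loci, and expression level was not matched. The genes with the ER stress element, HSPA5 and HSP90B1, had log2 changes of −0.04 and 0.17 in SMG6/XRN1 and −0.22 and −0.10 in UPF1/XRN1 over control. A motif match is a description of the letters and not of factor binding, and no match says only that these letters are not in the window.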

How the data were processed

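RNA-seq values of 4 libraries were used; 4 libraries of RNA 5' ends and 1 CAGE library were not used here. The submitters' processing notes name Cufflinks 2.0.2, TopHat2 2.0.6, Bowtie 0.12.7 and CASAVA 1.8.2 and the genome build hg19, with no role or order. The authors deposited FPKM per assembled locus, and a signal per isoform that is spike-in normalised by its name; the labels and headers do not name the spike-in or say whether strand was counted, which leaves overlapping and near-identical genes uncertain. The signal falls on whole multiples of 1 step per library (4.25 for SMG6/XRN1, 3.72 for UPF1/XRN1, 4.05 for XRN1 and 3.85 for control), which was taken as 1 read: of loci with at most 20 reads, 88.1%, 89.1%, 86.8% and 88.5% were whole within 0.01. As isoforms share reads, no count test was run. The FPKM and the spike-in normalised signal are scaled differently, so a gene's ratios can differ between them.

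Changes are log2((a + 1)/(b + 1)), which understates those of low genes, called at 2-fold over the whole table, for loci with a mean of at least 1 FPKM and isoforms with a mean signal of at least 30.9, the median of nonzero means. Read ratios carry exact conditional binomial 95% intervals for counting error only. With 1 library per condition there was no test. Members, lists and comparisons were chosen with earlier results of these data known. Named were members past 2-fold, the most abundant and the most changed of each family or comparison, and the 12 isoforms with the largest smaller rise over control in the co-depletions. Further members were named after their values were seen. Sequences and windows are from RefSeq (GRCh38.p14) and GENCODE 29 transcripts, with no hg19 coordinate used. Python 3.11.15 with pandas 2.3.3, scipy 1.17.1 and matplotlib 3.10.9 was used, and the scripts were tested on simulated data.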

Additional observations from a re-analysis of the deposited data

How the results depend on the processing

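Most counts and medians kept their size under another pseudocount, another filter or centring on the median of all loci. Counts of called loci were the most open, as they are small. With a mean of at least 5 FPKM, 1 locus was called in each of SMG6/XRN1 over control, UPF1/XRN1 over control and UPF1/XRN1 over XRN1, against 2, 3 and 2. With summed isoform signal per symbol in place of FPKM, 5, 6, 1, 4 and 4 were called in SMG6/XRN1 over control, UPF1/XRN1 over control, SMG6/XRN1 over XRN1, UPF1/XRN1 over XRN1 and XRN1 over control; of all symbols, 7.44%, 9.51% and 11.4% were called higher in the last 3. With loci that hold no other gene, chosen after seeing the data, 1 was called in SMG6/XRN1 over control and 1 in UPF1/XRN1 over XRN1. Centring left 1 call in UPF1/XRN1 over control and, for XRN1 over control, gave 1 where there had been 0, as did a pseudocount of 0.1. Medians after centring were −0.022 in SMG6/XRN1 over control and −0.069 in XRN1 over control, both with the sign turned, and 0.030 in SMG6/XRN1 over XRN1. On summed signal the medians were 0.38, 0.35, 0.26 and 0.19 for the co-depletions over control (SMG6/XRN1, UPF1/XRN1) and over XRN1 in that order. Isoforms called either way in SMG6/XRN1 and UPF1/XRN1 over control were 82 and 85 of 223. With a filter 4 times as high they were 44 and 51 of 169, and with no filter 160 and 155 of 377. Shares of all isoforms were not computed at these other filters. The HSPA1A/HSPA1B locus was 0.43 and 0.50 over control on summed signal of its own genes. No paired analysis was possible because each condition had 1 library. Few reads limit HSPB8, DNAJC27, DNAJA4, HSPB6 and DNAJC5G, and the last of these was at 0 reads in the control.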
